A study of Homo sapiens with 13 samples.

Results

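The genes described here were the receptors, ligands and immediate targets of the Notch pathway in cultured human osteoblasts: the receptors NOTCH1, NOTCH2 and NOTCH3, the ligands JAG1 and JAG2, and the targets HES1, HES4, HEY1, HEYL and NRARP. Their rows were found in the deposited table of raw read counts by matching each Ensembl identifier to its gene symbol, which gave 10 genes of the 43836 in the table, and all 10 were among the 17092 genes that passed the filter on low counts. The cells were hFOB 1.19, a line of immortalised human fetal osteoblasts, so every library came from 1 line and no other donor or tissue was sampled. Positive controls grew in medium with 10% fetal bovine serum (FBS), and negative controls grew without FBS, and both received the DMSO vehicle. The other cells were serum-starved in the same way and treated at 1 μg/mL with RES (resveratrol, a plant stilbene), POG (peonidin-3-glucoside, an anthocyanin) or DEG. The labels of the DEG libraries do not spell this abbreviation out, and the treatment text names delphinidin-3-glucoside as the remaining compound. Counts were at hand for 2 positive control, 2 negative control, 3 RES, 3 POG and 2 DEG libraries, and the third DEG library had no column in the count table and was not analysed here.

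Notch receptors are transmembrane proteins that are activated by ligands of the Jagged and Delta families on a neighbouring cell. Binding lets proteases release the intracellular part of the receptor, which travels to the nucleus, joins the DNA-binding protein RBPJ and Mastermind coactivators, and switches on genes of the HES and HEY families, which encode repressors of transcription. In the osteoblast lineage Notch signaling is known to hold precursors in an immature state, and HEY proteins can bind and inhibit RUNX2, the master transcription factor of osteoblasts. RNA levels of receptors and ligands do not measure cleavage of the receptor, so only transcript abundance is described here.

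The promoters of HES and HEY targets can hold binding sites for RBPJ, and they are shown for that reason. The motif GTGGGAA is a form of the RBPJ binding site (reverse complement TTCCCAC), and its core TGGGAA (reverse complement TTCCCA) lies inside it. Both were searched on both strands of the 250 bases before the RefSeq start of each gene, in sequences of GRCh38.p14. For NOTCH2, JAG2 and HES4 this start lies inside the gene span given below, so their windows overlap that span. RefSeq promoters were at hand for 9 of the 10 genes, all but HEY1. GTGGGAA stood in 3 of these 9, HES1, HES4 and HEYL, and in 5.43% of all 35116 promoters of that length, while the core alone stood in 20.8% of them. Capitals mark every match on either strand in the sequences below, given 5′ to 3′ on the strand of the gene, for HES1 at chr3:194135898-194136147 (plus strand), HES4 at chr1:1000098-1000347 (minus strand) and HEYL at chr1:39639644-39639893 (minus strand).
HES1: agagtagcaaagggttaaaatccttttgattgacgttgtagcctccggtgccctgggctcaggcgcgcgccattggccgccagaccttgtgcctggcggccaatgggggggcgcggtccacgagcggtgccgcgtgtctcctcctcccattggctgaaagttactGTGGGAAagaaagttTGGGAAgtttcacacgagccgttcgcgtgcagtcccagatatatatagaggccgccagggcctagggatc
HES4: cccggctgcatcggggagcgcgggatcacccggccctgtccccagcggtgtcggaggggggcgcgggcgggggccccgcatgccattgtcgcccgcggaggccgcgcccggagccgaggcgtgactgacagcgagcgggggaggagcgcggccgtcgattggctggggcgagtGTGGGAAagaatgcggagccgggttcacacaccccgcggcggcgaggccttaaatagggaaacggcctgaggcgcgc
HEYL: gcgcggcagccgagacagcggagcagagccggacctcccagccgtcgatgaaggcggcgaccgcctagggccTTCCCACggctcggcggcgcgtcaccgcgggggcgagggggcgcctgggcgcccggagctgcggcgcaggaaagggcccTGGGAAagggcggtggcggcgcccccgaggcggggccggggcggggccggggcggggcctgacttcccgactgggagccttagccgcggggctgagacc
In HES1 the motif GTGGGAA spanned -85 to -79 from the start and a further core match lay at -70 to -65. In HES4 the motif spanned -77 to -71. In HEYL it lay on the reverse strand at -178 to -172, with a core match on the gene's own strand at -99 to -94. Neither GTGGGAA nor TGGGAA was in this window of NOTCH1, NOTCH2, NOTCH3, JAG1, JAG2 or NRARP. Of the 3 genes with the longer motif, HES1 and HES4 passed the test in some of the 7 comparisons described below and HEYL in none. Of the genes with neither motif, NOTCH1, NOTCH2, NOTCH3, JAG1 and JAG2 also passed in some and NRARP in none. A link between the motif and the changes was not tested.

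In the hg38 annotation (GENCODE v44) the receptor genes lie at chr9:136494433-136546048 (NOTCH1), chr1:119911553-120100779 (NOTCH2) and chr19:15159038-15200995 (NOTCH3), all on the minus strand, with 34, 34 and 33 exons in their reference transcripts. JAG1 lies at chr20:10637684-10673999 and JAG2 at chr14:105140982-105168824, both on the minus strand with 26 exons each. The targets lie at chr3:194136148-194138732 on the plus strand (HES1, 4 exons) and, on the minus strand, at chr1:998962-1000172 (HES4, 4 exons), chr8:79762371-79767857 (HEY1, 5 exons), chr1:39623435-39639643 (HEYL, 5 exons) and chr9:137299631-137302271 (NRARP, 1 exon). The counts cover whole genes, so no exon, isoform or UTR was measured separately. NOTCH2 has near-identical copies, of which NOTCH2NLA had 52 to 143 reads per library in the table, against 29485 to 36976 for NOTCH2, and how reads that fit both were counted is not given in the sources used here. JAG2 shares 469 exon bases with a same-strand noncoding gene that had 0 to 3 reads, while JAG1 and NRARP share 306 and 73 exon bases with antisense genes that had no row in the table.

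The 12 libraries held 38464619 to 51416358 reads assigned to genes, with 3.03% to 3.91% of them mitochondrial. The smallest counts among the 10 genes were those of HEY1, with 29 to 50 reads per library, and then HEYL, with 90 to 140; NOTCH3 had 16270 to 31972. Osteoblast markers summed to 4752 to 5525 CPM per library (CPM is the read count of a gene scaled to the size of its library). Most of this was COL1A1, a collagen gene, at 2463 to 2869 CPM, COL1A2 at 1112 to 1420 CPM and SPARC at 1019 to 1177 CPM. RUNX2 had 44.3 to 51.6 CPM. The other markers were low: ALPL had 3.22 to 6.66 CPM, SPP1 0.95 to 2.34, DLX5 0.65 to 1.84 and BGLAP 0.42 to 2.00. The late marker IBSP had 0 or 1 reads and SP7, a later osteoblast transcription factor, had 0 to 8. The T cell marker CD3E had 0 reads in all 12 libraries. The endothelial list, summed, had 57.9 to 61.5 CPM in positive controls, 43.0 to 44.9 in negative controls, 53.6 to 60.4 with RES, 35.7 to 37.7 with POG and 38.9 to 39.1 with DEG. Most of this was TEK, at 33.1 to 56.8 CPM, while PECAM1 had 50 to 110 reads and the defining marker CDH5 had 0 to 5. The part of these lists in the values of the Notch genes was not tested. The epithelial list, summed, had 463.4 to 506.1 CPM in positive controls and 337.8 to 454.2 CPM in the other groups, nearly all from the keratin genes KRT8 and KRT18, while its defining members CDH1 and EPCAM had at most 12 and 23 reads. All libraries came from bulk cultures, in which fewer cells that express a gene and less RNA per cell cannot be told apart.

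Per base of gene length, the osteoblasts carried far more receptor than ligand RNA. In negative controls NOTCH3 stood highest at 84.6 ± 1.17 RPKM, which is CPM per kilobase of exon (SD, n = 2), followed by NOTCH2 at 48.1 ± 0.142 RPKM (SD, n = 2) and NOTCH1 at 13.6 ± 0.122 RPKM (SD, n = 2). The ligands were lower, with JAG1 at 3.97 ± 0.238 RPKM and JAG2 at 0.640 ± 0.037 RPKM (SD, n = 2 each). Among targets, HES4 at 35.1 ± 4.05 RPKM and HES1 at 32.3 ± 0.252 RPKM (SD, n = 2 each) differed by less than the spread of HES4, and their order turned when the longest transcript of each gene set its length (37.7 and 42.3 RPKM). NRARP, whose protein feeds back on the Notch complex, stood at 1.57 ± 0.125 RPKM, HEYL at 0.672 ± 0.0093 RPKM and HEY1 at 0.218 ± 0.016 RPKM (SD, n = 2 each). HEYL and JAG2 lay within the spread of JAG2. The lengths used here were the summed exon bases of each gene, and all values below are CPM, scaled by trimmed mean of M values (TMM), unless RPKM is named.

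**Figure D1:**
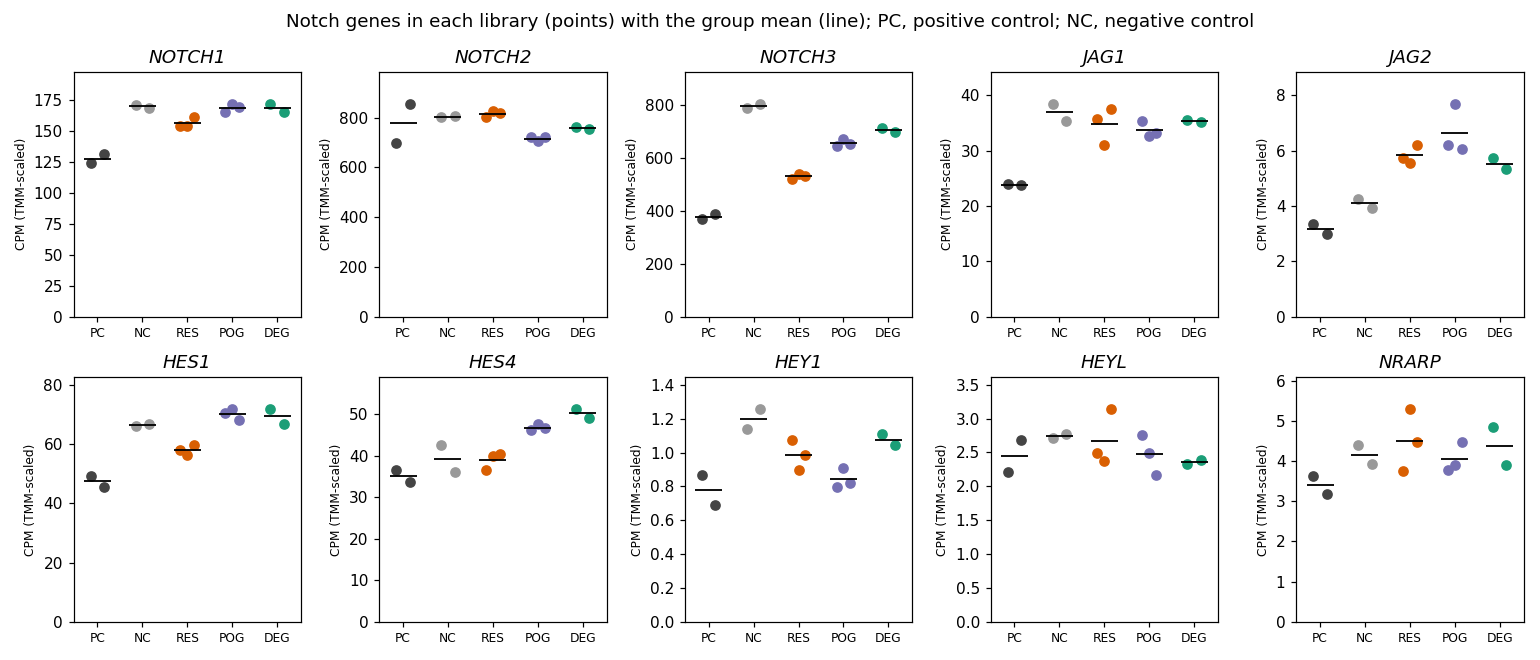
Each panel plots 1 gene, with the 5 groups on the horizontal axis and TMM-scaled CPM on a linear vertical axis from 0; points are libraries and the line is the group mean. NOTCH3 spans 367 to 804 CPM with no overlap between groups, and JAG2 is higher in all 8 treated libraries than in the 4 controls. For NRARP the positive controls lie below all other points, and the remaining groups overlap. The points of HEYL overlap across groups, except that negative controls lie above positive controls and DEG.

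The serum comparison asks which of these transcripts differ between osteoblasts with FBS and osteoblasts deprived of it. With serum, 6 of the 10 genes were lower and 0 were higher (edgeR exact test, false discovery rate [FDR] under 0.05), where 42.4% of all genes tested passed in either direction, 21.4% higher and 20.9% lower. The median log2 fold change was -0.39 over the 10 genes and -0.0059 over all genes tested. As compared with negative controls, RES gave 1 higher and 3 lower of 10, where 11.2% of all genes passed, 4.94% higher and 6.21% lower. POG gave 2 higher and 2 lower, where 14.5% of all genes passed, 5.93% higher and 8.57% lower. DEG gave 2 higher and 1 lower, where 9.63% of all genes passed, 3.52% higher and 6.11% lower. The median log2 fold changes of the 10 genes were -0.062 with RES, -0.083 with POG and -0.036 with DEG, beside 0.0011, 0.0023 and 0.00083 over all genes tested. These 4 comparisons share the same 2 negative control libraries, so a deviation of those libraries enters all of them.

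NOTCH3, the most abundant receptor transcript per length in negative controls, had the widest range over groups. Its level was 788 and 804 CPM in negative controls and 367 and 386 CPM in positive controls. RES libraries had 519, 538 and 533 CPM, POG libraries 643, 669 and 652 CPM, and DEG libraries 712 and 696 CPM. The 5 groups therefore did not overlap and ran, from high to low, negative control, DEG, POG, RES and positive control. With serum NOTCH3 fell by 1.08 ± 0.031 on the log2 scale (SE), to 0.473-fold (edgeR FDR = 1.58e-182). As compared with negative controls it fell by 0.59 ± 0.028 with RES (edgeR FDR = 1.74e-66), by 0.28 ± 0.028 with POG (FDR = 3.42e-15) and by 0.18 ± 0.030 with DEG (FDR = 5.32e-05). These 4 calls held under every alternative run, with the largest FDR at 0.0202 for DEG. The neighbours DEG and POG did not pass the test against each other (edgeR FDR = 0.113), and RES was not tested against positive controls.

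Markers of smooth muscle and pericytes, cells in which NOTCH3 is known to be expressed, also differed in summed level between some of these groups. The 5 markers summed to 158.7 to 168.8 CPM in positive controls, 295.7 to 296.7 in negative controls, 245.4 to 252.9 with RES, 239.5 to 244.1 with POG and 247.7 to 248.3 with DEG. Most of the sum was PDGFRB, a receptor also made by fibroblasts, at 128 to 265.6 CPM. ACTA2 had 24.8 to 31.7 CPM, and the defining marker MYH11 was near 0, at 0.23 to 0.57 CPM. With serum 1 of the 5 markers was lower and 0 higher, where 20.9% of all genes were lower and 21.4% higher. The median log2 fold change of the markers with serum was 0.14. As compared with negative controls, 1 marker was higher and 1 lower with RES, where 4.94% of all genes were higher and 6.21% lower. With POG and with DEG, 1 marker was lower and 0 higher each, where 8.57% and 6.11% of all genes were lower. For POG against RES, DEG against RES and DEG against POG 0 markers passed, where 27.9%, 21.2% and 1.05% of all genes did. Their part in the NOTCH3 values was not tested.

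NOTCH2 and NOTCH1 varied less. NOTCH2 had 803 and 806 CPM in negative controls, 802, 826 and 818 CPM with RES, 722, 707 and 721 CPM with POG, and 762 and 756 CPM with DEG. Its 2 positive control libraries, at 699 and 856 CPM, lay on either side of the negative controls. The log2 fold change with serum was -0.049 ± 0.047 (SE, edgeR FDR = 0.495), and it rested on which library was used: without positive control replicate 1 it was 0.095 (FDR = 1.88e-03) and without replicate 2 it was -0.19 (FDR = 9.95e-12). With POG NOTCH2 fell by 0.17 ± 0.043 on the log2 scale (edgeR FDR = 6.17e-03), but it did not pass once negative control replicate 1 was left out (FDR = 0.0765) or 2 (FDR = 0.0969) and in DESeq2 (adjusted p = 0.109).

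NOTCH1 had 171 and 169 CPM in negative controls and 124 and 131 CPM in positive controls. It had 154, 154 and 161 CPM with RES, 166, 172 and 169 CPM with POG, and 172 and 166 CPM with DEG, so that the positive controls stood lowest, RES libraries came next and POG and DEG libraries overlapped with negative controls. With serum NOTCH1 fell by 0.41 ± 0.038 on the log2 scale (SE, edgeR FDR = 2.42e-21). With RES it fell by 0.12 ± 0.034 (edgeR FDR = 0.0187), but this call was lost without RES replicate 1 (FDR = 0.0991) or 2 (FDR = 0.0975), without negative control replicate 1 (FDR = 0.214) or 2 (FDR = 0.123), when library totals replaced TMM factors (FDR = 0.0989), and with no filter on low counts (FDR = 0.0623). With POG and DEG the log2 fold changes were -0.0078 (95% interval -0.08 to 0.06) and -0.0085 (95% interval -0.09 to 0.07).

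Within a library, the 3 receptors can be set against each other without any scaling between libraries. NOTCH3 made up 57.9% ± 0.329 of the summed receptor RPKM in negative controls, 41.5% ± 2.17 in positive controls and 47.9% ± 0.154 with RES, against 55.3% ± 0.608 with POG and 56.0% ± 0.153 with DEG (SD, n = 2, 2, 3, 3 and 2). The NOTCH3 to NOTCH2 ratio on this scale was 1.76 ± 0.019 in negative controls and 0.868 ± 0.094 in positive controls (SD, n = 2 each), so that NOTCH2 was the more abundant receptor transcript with serum. It was 1.16 ± 0.0035 with RES, 1.63 ± 0.052 with POG and 1.65 ± 0.018 with DEG (SD, n = 3, 3 and 2). These ratios are descriptions without a test, and their absolute size depends on gene length: with the longest transcript of each gene NOTCH3 made up 51.1% in negative controls, and with RES the order turned, to 61.0 RPKM for NOTCH3 and 71.4 RPKM for NOTCH2.

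**Figure D2:**
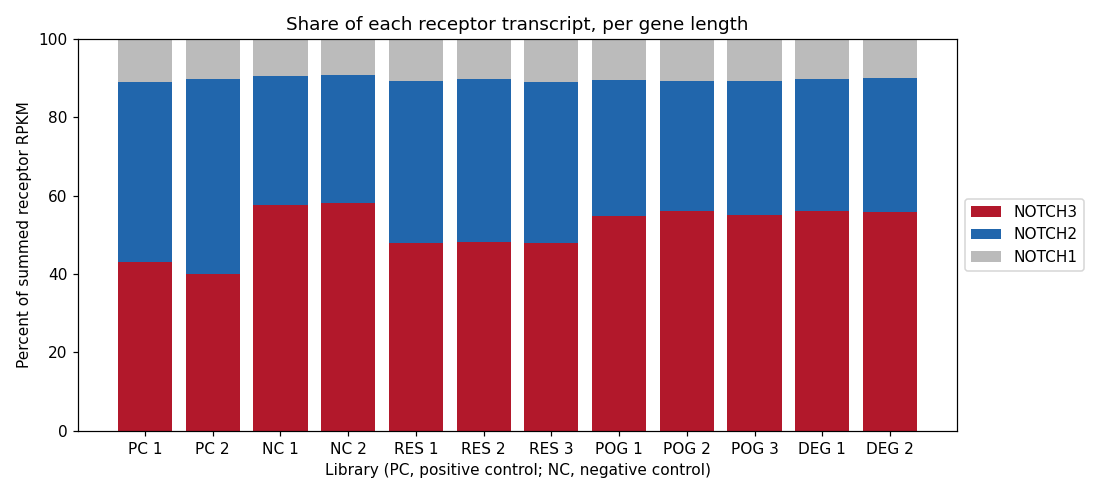
Stacked bars show, for each of the 12 libraries on the horizontal axis, the percent of summed NOTCH1, NOTCH2 and NOTCH3 RPKM that each receptor contributed. The NOTCH3 part is largest in negative controls (57.6% and 58.1%) and smallest in positive controls (39.9% and 43.0%), with RES libraries between 47.8% and 48.1%.

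Of the Jagged ligands, JAG1 passed the test with serum and JAG2 with serum and each compound. JAG1, the more abundant, had 38.5 and 35.3 CPM in negative controls and 23.9 and 23.7 CPM in positive controls. It had 35.8, 31.0 and 37.6 CPM with RES, 35.3, 32.7 and 33.2 CPM with POG, and 35.5 and 35.1 CPM with DEG. The positive controls stood apart, and the other 4 groups lay between 31.0 and 38.5 CPM. With serum JAG1 fell by 0.63 ± 0.070 on the log2 scale (SE), to 0.646-fold (edgeR FDR = 2.59e-17). The log2 fold changes with the compounds were -0.085 for RES (edgeR FDR = 0.465), -0.13 for POG (FDR = 0.174) and -0.063 for DEG (FDR = 0.694), none of which passed.

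JAG2, which per length was the scarcer ligand in every group, was higher with each compound than in either control. Negative controls had 4.26 and 3.92 CPM and positive controls 3.36 and 2.99 CPM. RES libraries had 5.74, 5.54 and 6.19 CPM, POG libraries 6.22, 7.69 and 6.05 CPM, and DEG libraries 5.73 and 5.32 CPM. No treated library overlapped with a control library, and 1 POG library stood above the rest. As compared with negative controls JAG2 rose by 0.70 ± 0.13 with POG (1.62-fold, edgeR FDR = 1.29e-06), by 0.51 ± 0.13 with RES (1.42-fold, FDR = 1.80e-03) and by 0.43 ± 0.14 with DEG (1.35-fold, FDR = 0.0298), each on the log2 scale with its SE. The POG call held under every alternative run, with a largest FDR of 2.84e-03, while JAG2 with RES did not pass once negative control replicate 2 was left out (FDR = 0.0931). The DEG call was lost in the quasi-likelihood test (FDR = 0.0516), in DESeq2 (adjusted p = 0.0653) and whenever either negative control or either DEG library was left out (FDR from 0.0800 to 0.264). With serum JAG2 fell by 0.36 ± 0.15 (edgeR FDR = 0.0402), a call that was likewise lost in both of those tests, with dispersions from the groups compared (FDR = 0.0677), with no filter on low counts (FDR = 0.0596) and without any 1 of the 4 libraries (FDR from 0.0501 to 0.235).

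JAG2 was 13.9% ± 0.017 of summed Jagged RPKM in negative controls and 16.2% ± 1.04 in positive controls (SD, n = 2 each). It was 19.6% ± 0.908 with RES, 22.3% ± 2.81 with POG and 18.5% ± 0.706 with DEG (SD, n = 3, 3 and 2). JAG1 was thus the main Jagged transcript in all 12 libraries.

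HES1, the classical Notch target and a repressor of differentiation genes, had 66.2 and 66.9 CPM in negative controls and 49.3 and 45.5 CPM in positive controls. It had 57.9, 56.3 and 59.7 CPM with RES, 70.6, 71.8 and 68.2 CPM with POG, and 71.8 and 66.8 CPM with DEG. Positive controls were lowest, RES libraries lay between them and negative controls, and the ranges of DEG and negative control libraries overlapped. With serum HES1 fell by 0.49 ± 0.050 on the log2 scale (SE), to 0.713-fold (edgeR FDR = 1.55e-19). With RES it fell by 0.20 ± 0.045 (edgeR FDR = 5.84e-04). Neither POG (log2 fold change 0.076, 95% interval -0.01 to 0.17) nor DEG (0.059, 95% interval -0.04 to 0.16) passed the test.

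HES4, a close relative of HES1 that mice lack, had 42.5 and 36.1 CPM in negative controls, 36.5 and 33.7 CPM in positive controls, and 36.6, 39.9 and 40.4 CPM with RES. POG libraries had 46.1, 47.5 and 46.5 CPM and DEG libraries 51.2 and 49.1 CPM, above every library of the other 3 groups. HES4 rose by 0.25 ± 0.058 with POG (edgeR FDR = 4.23e-04) and by 0.35 ± 0.063 with DEG (FDR = 2.51e-06) on the log2 scale (SE). With RES the log2 fold change was -0.0097 (95% interval -0.13 to 0.11). The 2 negative control libraries differed for this gene: without replicate 2, the lower of them, the POG difference was 0.14 (FDR = 0.231) and no longer passed, whereas the DEG call held in every alternative (largest FDR 0.0195). With serum HES4 fell by 0.16 ± 0.064 (edgeR FDR = 0.0376), but it did not pass without negative control replicate 1 (FDR = 0.781) or positive control replicate 2 (FDR = 0.249), with dispersions from the groups compared (FDR = 0.123) and in DESeq2 (adjusted p = 0.0710).

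HEY1, HEYL and NRARP were scarce, and none of them passed the test in any of the 7 comparisons. HEY1 had 1.14 and 1.26 CPM in negative controls and 0.870 and 0.688 CPM in positive controls. Its 3 POG libraries had 0.799 to 0.907 CPM, its RES libraries 0.894 to 1.08 CPM and its DEG libraries 1.04 and 1.11 CPM. The negative controls were thus highest, but at this depth the log2 fold change with serum was -0.61 with a 95% interval of -1.21 to -0.01 (edgeR FDR = 0.0709), and with POG it was -0.51 with an interval of -1.05 to 0.03 (FDR = 0.174).

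HEYL had 2.71 and 2.77 CPM in negative controls and 2.17 to 3.14 CPM over the other 10 libraries. NRARP had 4.39 and 3.92 CPM in negative controls and 3.18 to 5.30 CPM over the others. For HEYL the 95% intervals of the log2 fold change against negative controls lay between -0.61 and 0.31 over the 4 comparisons, and for NRARP between -0.62 and 0.42. A fall the size of that of HES1 with serum lay inside the serum interval of both genes.

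**Figure D3:**
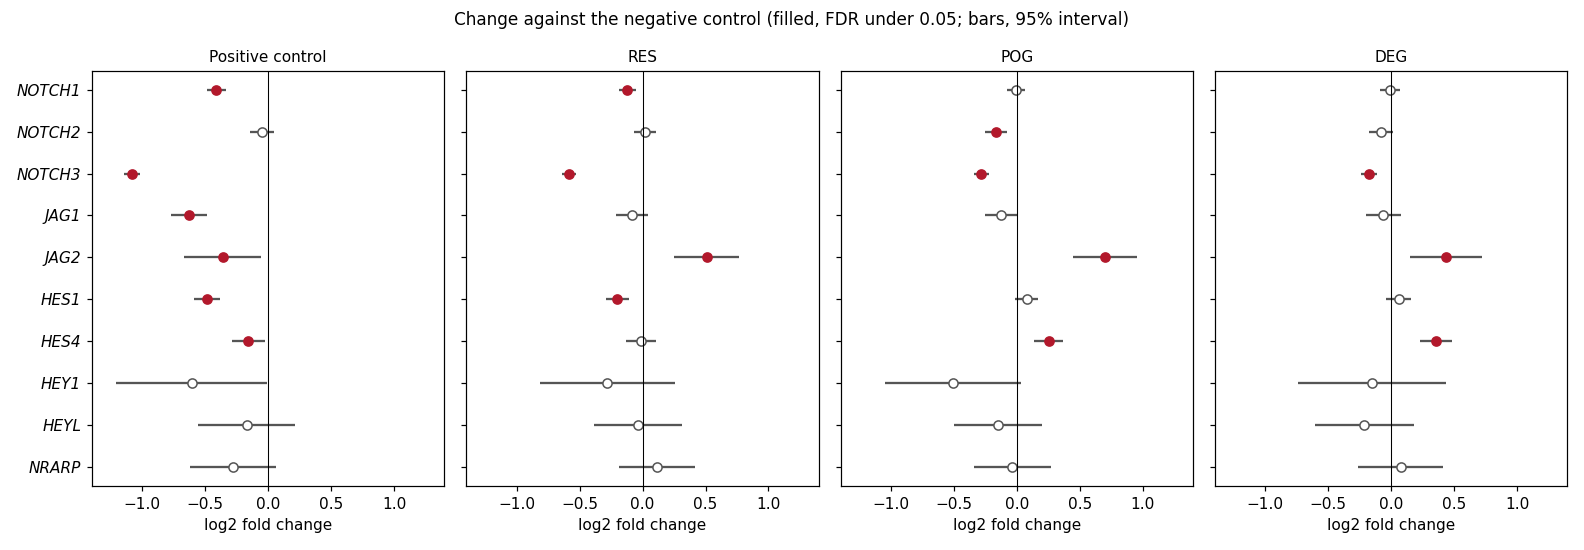
Points give the log2 fold change of each of the 10 genes against negative controls, on a common horizontal axis, for positive controls, RES, POG and DEG; bars are 95% intervals from the quasi-likelihood fit, and filled points passed an FDR of 0.05 in the edgeR exact test. NOTCH3 lies left of 0 in all 4 panels, from -1.08 to -0.18, and JAG2 lies right of 0 with the 3 compounds, from 0.43 to 0.70.

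The compounds were applied at the same dose by mass, 1 μg/mL, and molar doses are not given in the sources used here. The 3 pairs were compared directly at these doses, with FDR adjusted over all 17092 genes in each. In POG as compared with RES, 4 of the 10 genes were higher and 1 was lower, where 27.9% of all genes passed, 13.7% higher and 14.1% lower. NOTCH3 was higher with POG by 0.31 ± 0.025 on the log2 scale (SE, edgeR FDR = 2.53e-22), HES1 by 0.28 ± 0.040 (FDR = 6.54e-10), HES4 by 0.26 ± 0.051 (FDR = 6.42e-06) and NOTCH1 by 0.11 ± 0.031 (FDR = 4.84e-03). NOTCH2 was lower with POG (log2 difference -0.19 ± 0.038, edgeR FDR = 1.47e-04). All 5 of these calls held under every alternative run. POG and RES differ in that the former is a glycosylated flavonoid pigment and the latter a stilbene without a sugar.

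In DEG as compared with RES, 4 of the 10 genes were higher and 0 were lower, where 21.2% of all genes passed, 10.3% higher and 10.8% lower. The log2 differences were 0.41 ± 0.028 for NOTCH3 (edgeR FDR = 4.93e-32), 0.36 ± 0.057 for HES4 (FDR = 1.61e-08), 0.26 ± 0.045 for HES1 (FDR = 8.60e-07) and 0.11 ± 0.034 for NOTCH1 (FDR = 0.0190). The NOTCH1 call was lost without DEG replicate 1 (FDR = 0.307), RES replicate 1 (FDR = 0.0908) or RES replicate 2 (FDR = 0.0916), and with no filter on low counts (FDR = 0.0556). NOTCH2 was at -0.10 ± 0.043 (FDR = 0.117). Both comparisons used the same 3 RES libraries.

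Between DEG and POG 0 of the 10 genes passed in the edgeR exact test, where 1.05% of all genes did, 0.550% higher and 0.497% lower, and 2 of the 10 had an unadjusted p under 0.05. The quasi-likelihood test also called 0, DESeq2 called 1 (NOTCH3, adjusted p = 0.0386) and dispersions estimated from these 2 groups alone called 2, NOTCH3 (edgeR FDR = 8.52e-07) and NOTCH2 (FDR = 1.84e-04). The intervals bound how far the compounds may differ: DEG minus POG was 0.10 (95% interval 0.05 to 0.16) for NOTCH3, 0.083 (-0.0042 to 0.17) for NOTCH2, -0.00071 (-0.07 to 0.07) for NOTCH1 and -0.018 (-0.11 to 0.07) for HES1 on the log2 scale. They were wider for JAG2, at -0.27 (-0.51 to -0.02), and widest for HEY1, at 0.36 (-0.20 to 0.91).

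JAG2 did not pass in any pair of compounds. Its log2 difference was 0.19 (95% interval -0.02 to 0.40) for POG against RES and -0.076 (-0.32 to 0.17) for DEG against RES. JAG1 was at -0.044 (-0.16 to 0.07) and 0.022 (-0.11 to 0.15) in the same comparisons.

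**Figure D4:**
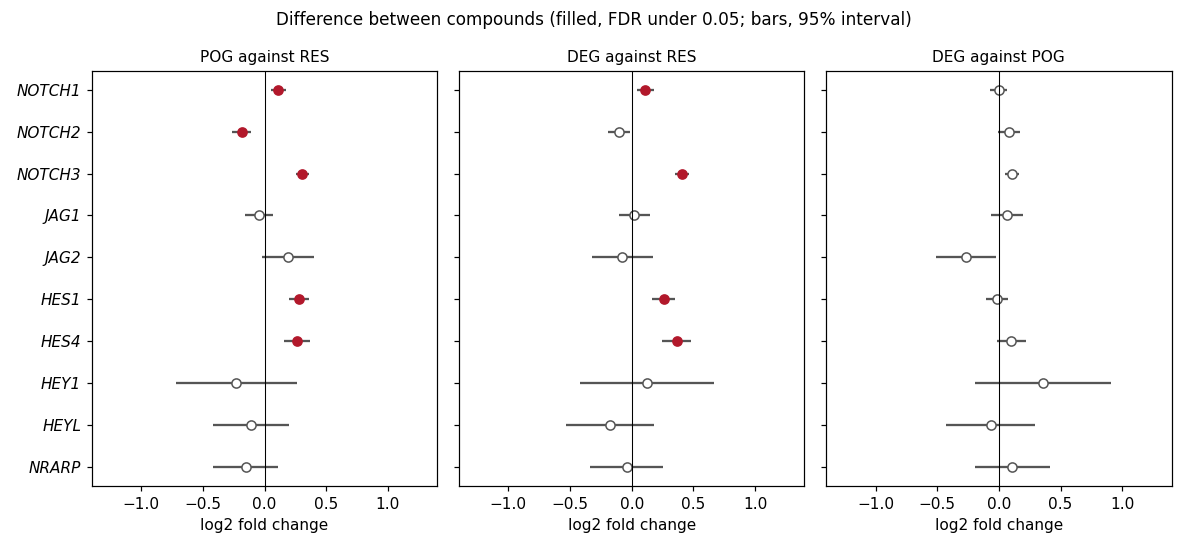
Log2 differences of the 10 genes between compounds, for POG against RES, DEG against RES and DEG against POG, with 95% intervals as bars and filled points for genes that passed an FDR of 0.05 in the edgeR exact test. NOTCH3, HES1, HES4 and NOTCH1 are filled and right of 0 in the first 2 panels, and no point is filled in the third.

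The wider pathway was followed with 55 further genes, of which 50 passed the filter on low counts, and their calls were checked under no alternative. Among the genes named from it, PSEN2 shares 6342 exon bases and ITCH 2901 with another same-strand protein-coding gene, and DLL1, DLK2, RFNG, MIB2, NEURL1B, ADAM17, MAML3, FBXW7 and DTX3L share 76 to 1645 with a gene on the opposite strand, so their counts are uncertain to that extent. With serum 10 were higher and 21 lower, where 21.4% of all genes were higher and 20.9% lower, with a median log2 fold change of -0.096 against -0.0059 over all genes. Of 5 other receptors and ligands tested, 3 were lower and 0 higher: the Delta ligands DLL4 (0.546 ± 0.201 against 1.05 ± 0.430 CPM, SD, n = 2 each, edgeR FDR = 0.0120) and DLL1 (0.976 ± 0.308 against 1.74 ± 0.129 CPM, FDR = 2.50e-03) were among them. HES6, a HES family member that opposes HES1, fell from 8.88 ± 0.331 CPM in negative controls to 4.39 ± 0.481 CPM with serum, by 1.01 ± 0.12 on the log2 scale (edgeR FDR = 2.12e-16). Among 9 proteases that cut the receptor and their subunits, 4 were lower and 0 higher, beside the same 20.9% and 21.4% of all genes.

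Among the members that rose with serum were LFNG (0.47 ± 0.15, edgeR FDR = 6.94e-03), a Fringe enzyme that adds sugar to the receptor, and the Mastermind coactivator MAML3 (0.37 ± 0.11, FDR = 2.20e-03), on the log2 scale with SE. The nuclear complex and corepressors thus went both ways, with 5 of 16 higher and 7 lower, where 21.4% of all genes were higher and 20.9% lower. Their median log2 fold change was -0.050, beside -0.0059 over all genes.

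With RES 5 of the 50 genes were higher and 1 lower, a share near the 11.2% of all genes that passed. MAML3 (0.31 ± 0.10, edgeR FDR = 0.0258), the ubiquitin ligase DTX3L (0.19 ± 0.035, FDR = 3.09e-05) and the RBPJ-binding corepressor CIR1 (0.18 ± 0.042, FDR = 1.69e-03) rose, and DLK2, a noncanonical ligand, fell by 0.46 ± 0.17 (FDR = 0.0470). With POG 4 were higher and 7 lower, where 14.5% of all genes passed. NEURL1B, an E3 ligase that acts on ligands, rose by 0.25 ± 0.048 (edgeR FDR = 1.79e-05), as did the Fringe enzyme RFNG (0.13 ± 0.042, FDR = 0.0286) and the E3 ligase MIB2 (0.13 ± 0.039, FDR = 0.0214). ADAM17, a protease that sheds receptor ectodomains, fell by 0.19 ± 0.041 (FDR = 2.91e-04), with POGLUT1, an enzyme that adds glucose to the receptor (-0.22 ± 0.077, FDR = 0.0349).

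With DEG 3 of the 50 genes were higher and 2 lower, a share near the 9.63% of all genes that passed. FBXW7 (0.20 ± 0.062, edgeR FDR = 0.0244), which marks the intracellular receptor for degradation, CIR1 (0.16 ± 0.047, FDR = 0.0178) and the ubiquitin ligase ITCH (0.15 ± 0.047, FDR = 0.0235) rose, while APH1B (-0.22 ± 0.067, FDR = 0.0221), a γ-secretase subunit, and DTX3L (-0.19 ± 0.039, FDR = 2.47e-04) fell.

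Between compounds, 4 of the 50 genes were higher and 8 lower in POG than in RES, and 3 were higher and 7 lower in DEG than in RES, shares no higher than the 27.9% and 21.2% of all genes that passed. MAML3 had the largest decrease in each, at 8.25 ± 0.342 CPM with RES (SD, n = 3), 5.45 ± 0.523 CPM with POG (SD, n = 3, edgeR FDR = 1.38e-09) and 5.61 ± 0.097 CPM with DEG (SD, n = 2, FDR = 3.22e-06). DTX3L followed, at 195.3 ± 3.05 CPM with RES, 158.5 ± 3.58 CPM with POG (edgeR FDR = 1.53e-16) and 149.4 ± 0.391 CPM with DEG (FDR = 1.14e-20). PSEN2, a catalytic γ-secretase subunit, was lower in DEG than in RES (-0.21 ± 0.077, edgeR FDR = 0.0324). In the other direction DLK2 (0.42 ± 0.15, edgeR FDR = 0.0195), NEURL1B (0.23 ± 0.042, FDR = 2.35e-06) and MIB2 (0.21 ± 0.035, FDR = 2.52e-07) were higher in POG than in RES. MIB2 (0.18 ± 0.039, edgeR FDR = 3.51e-04), MIB1 (0.13 ± 0.046, FDR = 0.0384) and the corepressor TLE3 (0.13 ± 0.039, FDR = 0.0145) were higher in DEG than in RES. Between DEG and POG only NEURL1B passed, at 38.3 CPM with DEG and 43.7 CPM with POG (log2 difference -0.19 ± 0.047, edgeR FDR = 0.0191).

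**Figure D5:**
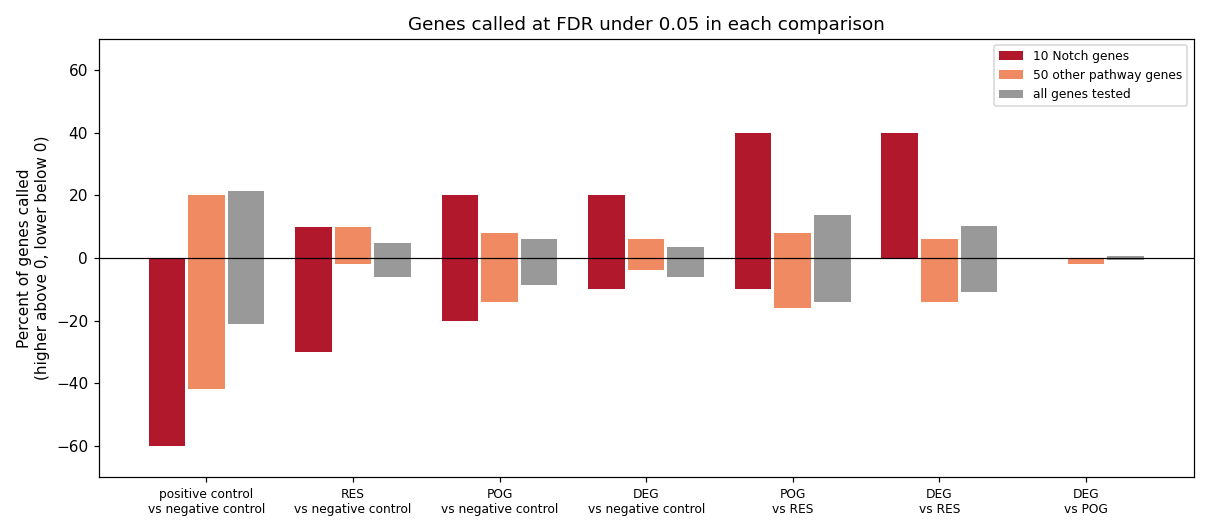
For each of the 7 comparisons, bars show the percent of the 10 Notch genes, the 50 other pathway genes and all 17092 genes that passed an FDR of 0.05, with higher genes above 0 and lower genes below. With serum 6 of 10 Notch genes and 21 of 50 pathway genes were lower, beside 20.9% of all genes.

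The genes whose levels most resembled those of the 3 Notch genes with the widest range are given as a description over the 12 libraries, which share their groups. Among 13405 genes compared on the log2 CPM scale, NOTCH3 was most like COL4A2 (Pearson r = 0.992), which encodes a type IV collagen chain, MAFK (r = 0.988), a small MAF transcription factor, and TBX2 (r = 0.980), a T-box transcription factor. JAG2 was most like MOB3C (r = 0.961), TMEM178A (r = 0.961) and CRELD1 (r = 0.946). JAG1 was most like CNNM2 (r = 0.963), RSPH3 (r = 0.955) and BCL2L11 (r = 0.950), the last of which encodes the proapoptotic protein BIM.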

How the data were processed

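Poly(A) mRNA libraries of hFOB 1.19 osteoblasts were compared over 5 groups taken from the sample labels, with 12 of the 13 labelled samples present in the table. The authors aligned reads to hg38 with STAR (their methods also name BWA MEM) and deposited raw read counts per Ensembl gene from featureCounts; versions, strand setting and handling of reads that fit several genes are not given in the sources used here. The methods describe replicate wells for the compounds but not whether each library came from its own well, so p-values measure the spread between these libraries, which may be technical. Labels give no sequencing batch.

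Following the method named by the study, counts were tested with the edgeR exact test (edgeR 4.0.16, limma 3.58.1, R 4.3.3), with TMM factors, filterByExpr, dispersions from all 12 libraries (common biological coefficient of variation 3.21%) and Benjamini-Hochberg adjustment over 17092 genes; genes were called at FDR under 0.05. SE and 95% intervals come from the edgeR quasi-likelihood fit. CPM and RPKM were computed from the deposited counts, RPKM with summed exon lengths of GENCODE v44. On simulated counts, 100 genes were changed by 0.5 and 100 by 1 on the log2 scale. The test recovered 84% and 98% of them for positive against negative controls (16779 genes tested), with 11 false calls. It recovered 83% and 100% for RES against negative controls (16785 genes), with 21 false calls. In both, false calls were a larger share of the calls than the FDR of 0.05. DESeq2 1.42.0, the quasi-likelihood test, other scalings, filters and dispersions, and leaving out each library were alternatives. Depth was 38464619 to 51416358 counts per library.

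The 10 genes and all gene lists were chosen with earlier results of these data known. All 10 are reported; of 55 wider pathway genes, those named are, per comparison, the called genes with the largest change, at most 3 higher and 3 lower, if 1 of the groups averaged 1 CPM or more and the libraries of the 2 groups did not overlap, and the 3 genes most correlated with each of the 3 Notch genes of widest range. Values of 1 gene that the rule would name are not reported here. Promoter sequences are from RefSeq (GRCh38.p14).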

Additional observations from a re-analysis of the deposited data

How the results depend on the processing

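Of 70 results for the Notch genes (10 genes in 7 comparisons), 26 were called; all 26 kept their direction in every alternative, 18 also kept the call in every alternative, and 20 did so when no library was left out. Reversals occurred in 16 uncalled results. Scaling by library totals made the log2 fold change 0.018 for HES4 with RES, 0.016 for NOTCH1 with POG and 0.010 for NOTCH1 with DEG, and DESeq2 and RLE factors both made it 0.0014 for NOTCH1 in DEG against POG. Leaving out 1 library at a time moved uncalled values across 0, from -0.19 to 0.095 for NOTCH2 with serum; with RES from -0.12 to 0.11 for HES4, -0.17 to 0.040 for HEYL and -0.017 to 0.23 for NRARP; with POG from -0.020 to 0.0059 for NOTCH1 and -0.11 to 0.047 for NRARP; and with DEG from -0.036 to 0.018 for NOTCH1 and -0.094 to 0.22 for NRARP. In POG against RES the ranges were -0.12 to 0.015 for JAG1 and -0.19 to 0.024 for HEYL, and in DEG against RES -0.055 to 0.081 for JAG1 and -0.21 to 0.11 for NRARP. In DEG against POG they were -0.029 to 0.026 for NOTCH1, -0.071 to 0.033 for HES1, -0.15 to 0.017 for HEYL and -0.059 to 0.26 for NRARP.

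Of the Notch genes, 2 to 4 were called with RES and 2 to 4 with POG when 1 library was left out, both lowest without negative control replicate 2; in DEG against POG 1 was called by DESeq2, which gave an adjusted p for 6 of the 10, and 2 with dispersions from the groups compared. Over all genes, calls in DEG against POG numbered 179, but 103 in the quasi-likelihood test, 116 without a filter, 838 with dispersions from the groups compared and 32 to 100 with 1 library left out. For DEG against negative controls they numbered 1646, 2573 with dispersions from the groups compared and 850 to 931 with 1 library left out. With 1 library left out, calls ranged from 881 to 1465 for RES, from 1362 to 1941 for POG and from 2068 to 3061 for DEG against RES. Higher genes made up 64% of calls with RES under library totals and 44.3% with TMM, and these shares were 56% and 40.9% with POG and 49.3% and 36.6% with DEG. With the longest transcript as gene length, NOTCH3 made up 51.1% of receptor RPKM in negative controls. The causes were not tested.

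With 2 or 3 libraries per group and 29 to 50 reads for HEY1 per library, small changes of scarce genes could not be resolved. No paired analysis was possible because the labels carry no replicate numbers shared between groups.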

Other observations

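Lists of genes that respond to other signals were followed beside the Notch genes, and their calls were likewise checked under no alternative. Of 6 BMP and SMAD response genes (ID1 to ID4, SMAD6 and SMAD7), 4 were higher and 0 lower with serum, where 42.4% of all genes passed and 21.4% were higher, with a median log2 fold change of 0.33, and their summed level was 141.9 CPM in positive and 94.4 CPM in negative controls. With RES 1 was higher and 1 lower and with POG 1 was lower, where 11.2% and 14.5% of all genes passed.

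Of 5 YAP and TEAD response genes (CCN1, CCN2, ANKRD1, AMOTL2 and LATS2), 4 were higher with serum (median log2 fold change 0.60, beside 21.4% of all genes higher). With POG 4 were lower (median -0.35, beside 8.57% of all genes lower). With RES 1 was higher and with DEG 1 was lower, where 4.94% of all genes were higher and 6.11% lower. All 5 were lower in POG than in RES, at a summed 854.9 against 1042.6 CPM, where 14.1% of all genes were lower. In DEG against POG 2 were higher and 0 lower, where 0.550% of all genes were higher. In DEG against RES 1 was higher and 2 were lower, where 10.3% of all genes were higher and 10.8% lower. Of 8 proliferation genes 2 were higher and 1 lower with serum, a share near the 42.4% of all genes that passed. Their summed level was 2832.3 CPM in positive and 2834.7 CPM in negative controls. With RES 1 was higher and 1 lower, where 11.2% of all genes passed. With POG 3 were higher and 0 lower and with DEG 2 and 0, where 5.93% and 3.52% of all genes were higher. In POG against RES and in DEG against RES, 4 were higher and 2 lower each, where 27.9% and 21.2% of all genes passed. Between DEG and POG 0 passed, where 1.05% of all genes did.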
